A study of Mus musculus with 4 samples.

Results

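The cell cycle was examined here through 42 human genes whose products act in DNA replication or in mitosis. Of these, 24 were mitotic members and 18 were S phase members, out of 33538 human genes in the deposited tables. All 42 were found by symbol and all had counts. They were read in cell barcodes in which more than 50% of the unique molecular identifiers (UMIs, each standing for 1 captured transcript) lay on human genes.

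The series profiled human leukocytes in humanised NSG-SGM3 mice with droplet-based 3′ single-cell RNA sequencing. All hosts were MloySzJ mice of NOD.Cg background with the alleles Prkdcscid and, at the interleukin-2 receptor gamma chain, IL2rgtm1Wjl, and therefore lacked lymphocytes of their own. They also carried the transgene Tg(CMV-IL3,CSF2,KITLG)1Eav, which expresses human IL-3, GM-CSF and stem cell factor from a CMV promoter, and all had been engrafted with human cord blood stem cells. The 4 libraries were blood of naïve hosts with no surgery, blood of sham hosts with a T9 laminectomy, blood of hosts with a T9 spinal cord injury (SCI), and the injured cord of SCI hosts, with the operated hosts sampled at 7 days. The labels give an age of 15 weeks for every library. Human CD45+ cells were sorted from each tissue, after enrichment on magnetic beads for the cord, and cells of several hosts were pooled. The labels give male hosts for naïve and sham blood and pooled male and female hosts for both SCI libraries, so that host sex and injury cannot be told apart.

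A dividing cell first licenses its replication origins with CDC6, CDT1 and the MCM helicase, then copies its DNA in S phase with the sliding clamp PCNA and with nucleotides made by thymidylate synthase (TYMS) and ribonucleotide reductase (RRM1 and RRM2). In G2 and mitosis it transcribes cyclin B, CDK1, the Aurora and Polo kinases, spindle motors, kinetochore proteins and the anaphase machinery. Circulating human lymphocytes are mostly resting, whereas activated T cells and the plasmablasts that precede plasma cells divide.

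After quality filters 6323 cells were kept from naïve blood, 4648 from sham blood, 5931 from SCI blood and 118 from SCI cord, with median depths of 3697, 5232, 4655 and 9331 UMIs. The leukocyte gene PTPRC (CD45) was detected in 96.6% to 99.4% of cells, and 21 barcodes occurred in more than 1 library. Each condition had 1 library, so that no test between conditions was possible, and the 95% intervals below cover counting error only. Because depth differed, each cell was thinned at random to 1000 UMIs, which left out no cell. A cell was then given a mitotic call when at least 2 different mitotic members had a UMI, and an S phase call when at least 3 different S phase members did.

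Human RNA was also counted in barcodes of mouse cells. The blood libraries held 1396 (naïve), 1955 (sham) and 1214 (SCI) barcodes of mouse cells and the cord held 92. Among them, between 1 and 22 human mitotic UMIs were counted per library, or 0.00906 to 0.0113 per barcode. Only 1 mouse barcode, in naïve blood, met the mitotic rule with all its UMIs, and none met the S phase rule. The median human content of these barcodes was 15 to 42.5 UMIs, far below that of the cells. Per 1000000 human UMIs, the mouse barcodes held 551, 464, 379 and 176 mitotic UMIs against 617, 657, 488 and 832 in human cells of naïve, sham and SCI blood and the cord, and 890, 359, 447 and 529 S phase UMIs against 521, 455, 431 and 515. The part of such RNA in the calls of human cells was not tested.

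Dividing cells were a small minority in every library. The mitotic call was met by 261 of 6323 naïve cells (4.13%, exact binomial interval 3.65 to 4.65), 140 of 4648 sham cells (3.01%, 2.54 to 3.54), 156 of 5931 SCI blood cells (2.63%, 2.24 to 3.07) and 5 of 118 cord cells (4.24%, 1.39 to 9.61). The naïve share was the highest of the blood libraries, the sham and SCI blood intervals overlapped, and the cord interval spanned all 3 blood values. The S phase call was met by 1.91% of naïve cells (1.59 to 2.28), 1.66% of sham cells (1.31 to 2.07), 1.72% of SCI blood cells (1.40 to 2.08) and 2.54% of cord cells (0.527 to 7.25). These S phase intervals overlapped across all libraries. With barcodes that passed more than 1 cell type gate left out, the mitotic shares were 3.83%, 2.62%, 2.60% and 3.67% in the same order.

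**Figure D1:**
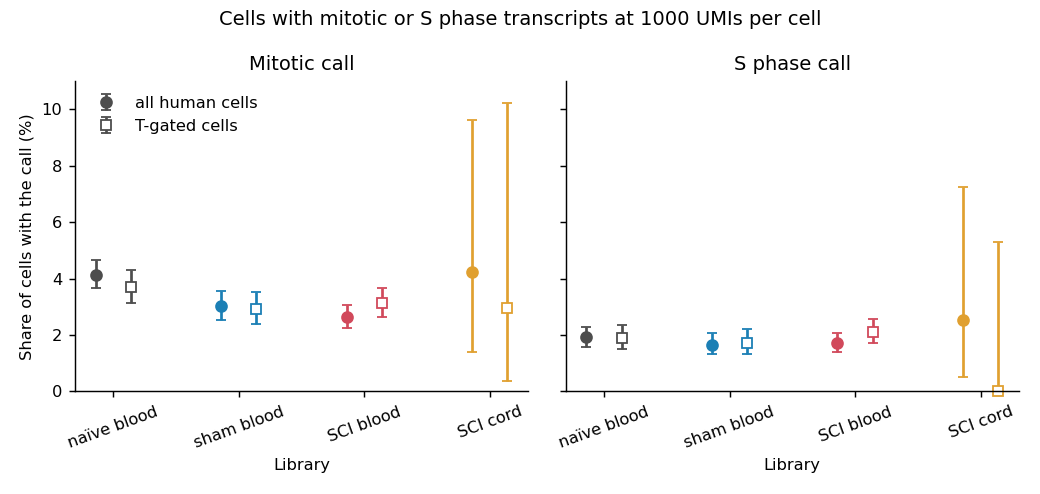
Share of human cells with a mitotic or an S phase call (percent, y axis) in each library (x axis), with points for the shares after thinning to 1000 UMIs and bars for the exact binomial intervals. Mitotic shares fall from 4.13% in naïve blood to 2.63% in SCI blood, while the cord bars, from 118 cells, span every blood value.

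The calls picked out cells that held nearly all of the mitotic transcripts. Before thinning, the cells that met the mitotic rule made up 9.96% of naïve, 9.44% of sham, 7.76% of SCI blood and 12.7% of cord cells, and they held 94.2%, 94.8%, 93.5% and 96.3% of all mitotic UMIs. S phase transcripts were less concentrated, with 77.9%, 74.6%, 72.4% and 88.1% of their UMIs in the 8.79%, 8.93%, 7.55% and 16.1% of cells that met the S phase rule. In thinned data 88.1% to 91.9% of cells had no mitotic member at all, whereas 80.7% to 83.9% had no S phase member. The cut did not fall in an empty range, since 88 naïve, 43 sham, 47 SCI blood and 1 cord cell sat exactly at 2 mitotic members and 419, 287, 323 and 9 had 1. Both calls were met by 60 naïve, 42 sham, 53 SCI blood and 2 cord cells. Called cells were also the larger libraries, with median depths before thinning of 9096, 14273.5, 12008 and 31337 UMIs for the mitotic call.

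Among the mitotic members, levels are given as counts per 1000000 (CPM) of all human UMIs of a library outside ribosomal and mitochondrial genes, in the order naïve blood, sham blood, SCI blood and SCI cord. MKI67, which encodes the Ki-67 protein that coats mitotic chromosomes, was counted most often and took 12.9% of all mitotic UMIs. It stood at 111, 114, 89.4 and 123 CPM. TOP2A, the topoisomerase that untangles sister chromatids, stood at 61.5, 87.3, 72.6 and 101 CPM. MKI67 was thus lowest in SCI blood and TOP2A lowest in naïve blood, while both were highest in the cord. The cord rank rested on 1 barcode, the one with most mitotic UMIs. Without it, MKI67 stood at 80.0 and TOP2A at 51.1 CPM in the cord, below every blood value.

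The kinetochore members CENPF and CENPE, which join chromosomes to spindle fibres, followed the order of MKI67. CENPF stood at 84.9, 92.0, 74.8 and 123 CPM, and CENPE at 45.4, 46.9, 36.4 and 74.5 CPM. Of the spindle members, ASPM, which organises spindle poles, stood at 53.9, 61.6, 45.0 and 81.1 CPM. NUSAP1, which bundles microtubules, stood at 51.6, 59.8, 47.7 and 80.1 CPM, and TPX2, which activates Aurora A, at 36.8, 40.7, 31.9 and 56.6 CPM. SCI blood was the lowest library for all 5 of these genes and the cord the highest. The other spindle members DLGAP5, GTSE1, HMMR, KIF11, KIF15 and KIF23 lay between 11.4 and 33.1 CPM in blood.

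The cyclin and kinase members were less abundant in UMIs. CCNB1, the cyclin that activates CDK1 at mitotic entry, stood at 37.2, 36.5, 28.3 and 51.8 CPM. CDK1 itself stood at 29.8, 29.4, 26.2 and 50.9 CPM. CCNB2, AURKA, AURKB and PLK1 lay between 12.2 and 29.1 CPM in blood, each with its lowest blood value after SCI. Of the checkpoint and anaphase members, the ubiquitin-conjugating enzyme UBE2C stood at 31.5, 41.8, 34.7 and 51.8 CPM and BIRC5 (survivin) at 35.2, 31.8, 25 and 47.1 CPM. CDC20, which activates the anaphase-promoting complex, had another order and stood at 26.8, 17.5, 15.7 and 14.1 CPM. The spindle checkpoint kinase BUB1 stood at 15.6, 14.6, 9.17 and 12.3 CPM, and BUB1B at 8.66, 7.06, 7.59 and 10.4 CPM. CDC20 and BUB1 were thus highest in naïve blood, unlike most of the mitotic list.

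S phase members had several orders of the libraries. Of these members, PCNA was the most frequent, with 15.6% of S phase UMIs, and stood at 96.0, 101, 105 and 102 CPM. The helicase subunit MCM3 stood at 82.6, 88.9, 86.2 and 65.0 CPM. The Poisson intervals of the cord value of PCNA (83.5 to 123 CPM) spanned all 3 blood values, and that of MCM3 (50.6 to 82.3 CPM) lay just below them. MCM5 stood at 55.1, 46.0, 51.1 and 44.3 CPM and MCM7 at 57.2, 44.9, 47.1 and 55.6 CPM. MCM2, MCM4, MCM6 and GINS2, which works with the same helicase at the fork, lay between 10.8 and 29.9 CPM in blood.

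The enzymes of nucleotide supply were highest in naïve blood among the blood libraries. TYMS stood at 77.3, 63.7, 63.2 and 92.4 CPM. RRM2, the S phase subunit of ribonucleotide reductase, stood at 65.6, 44.7, 39.9 and 46.2 CPM, whereas its partner RRM1, which cells keep through the cycle, was flat at 49.4, 46.6, 45.4 and 44.3 CPM. CLSPN (claspin), which guards the fork, stood at 41.1, 35.3, 32.9 and 50.9 CPM, and UHRF1, which copies DNA methylation behind it, at 10.3, 11.3, 12.1 and 23.6 CPM. Of the licensing factors, CDC6 stood at 14.6, 6.18, 6.89 and 9.43 CPM and CDT1 at 17.6, 13.4, 16.5 and 11.3 CPM. The G1/S regulators E2F1, CCNE1 and CCNE2 were low, between 5.07 and 19.9 CPM in every library. CDC6 had the widest spread over the blood libraries of the S phase members, with its naïve value far above the others.

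**Figure D2:**
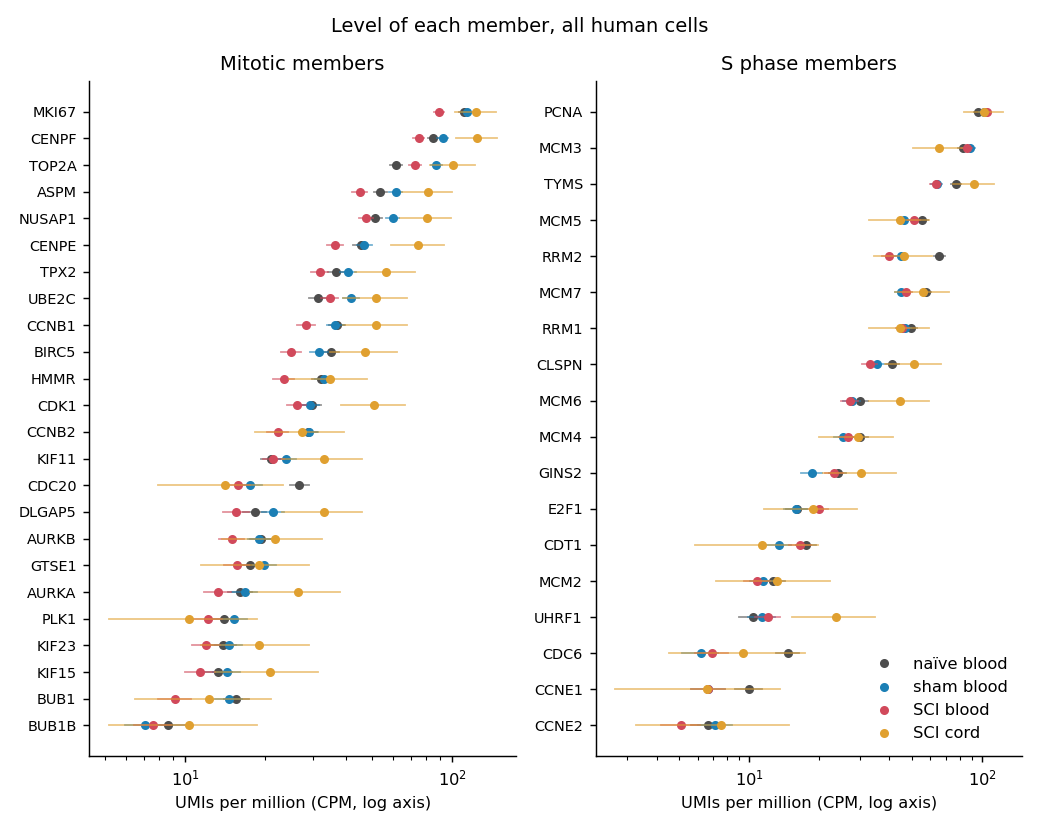
Level of each of the 42 members (CPM, log axis) in the 4 libraries, with bars for exact Poisson intervals and the members grouped as mitotic and S phase. MKI67 reaches 123 CPM and PCNA 105 CPM, and CDC6 and RRM2 are the S phase members with a naïve value well above the other blood values.

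Members were then checked against calls made without them. With its own UMIs left out of the rule, MKI67 was detected at 1000 UMIs in 38.9% to 55.2% of cells with only a mitotic call, in 13.7% to 31.0% of cells with only an S phase call and in 0.697% to 0.880% of cells with neither, over the 3 blood libraries. CENPF behaved alike, at 40.0% to 45.1%, 6.25% to 15.4% and 0.872% to 1.21%. UBE2C, a late mitotic gene, was the most restricted of those named, with 14.5% to 26.5%, 0 to 2.04% and at most 0.05%. These genes therefore marked the mitotic class even when they had no part in the call.

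PCNA showed the opposite order, in 11.4% to 18.6% of cells with only a mitotic call, 34.6% to 50% with only an S phase call and 3.50% to 3.87% with neither. MCM5 was found in 1.02% to 6.54% of mitotic only and 19.4% to 19.6% of S phase only cells, and GINS2 in 0 to 4.81% and 16.9% to 20.0%. TYMS was found in 16.9% to 23.3% and 25% to 27.6% of these classes and in 45.8% to 54.1% of cells with both calls. RRM2, at 12.3% to 12.9% and 10.6% to 11.8%, did not separate them, and also stood highest in cells with both calls, at 20.5% to 46.2%. The mitotic and S phase lists were thus related but not interchangeable.

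**Figure D3:**
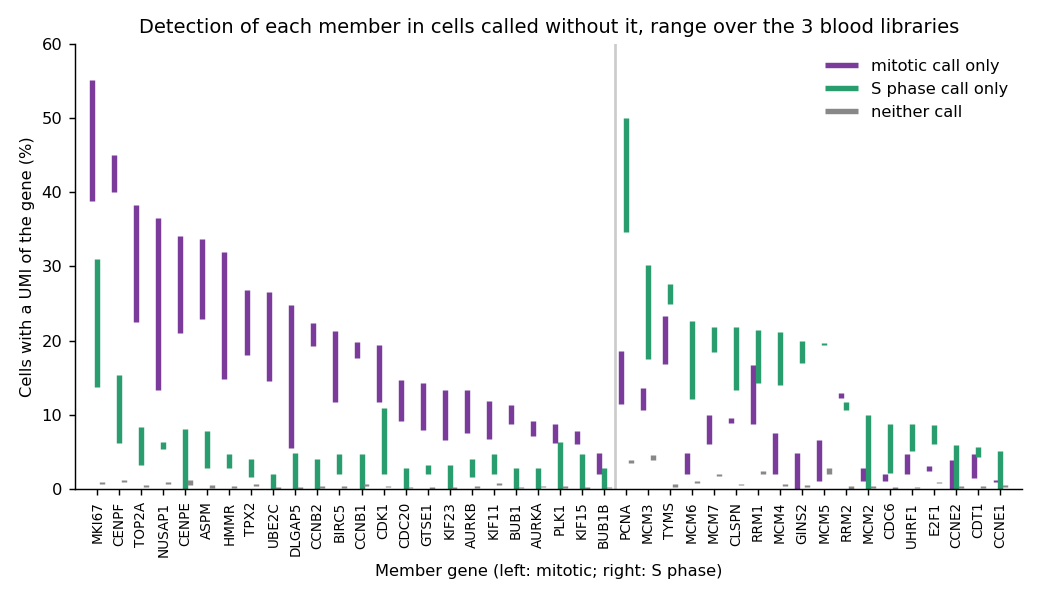
Share of cells (percent, y axis) with a UMI of each member at 1000 UMIs, in cells with only a mitotic call, only an S phase call, both or neither, each call made without the gene plotted, as the range over 3 blood libraries. MKI67 reaches 38.9% to 55.2% in mitotic only cells, and PCNA 34.6% to 50% in S phase only cells.

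Cells were next assigned to classes by fixed marker genes that include no member. T cells needed at least 2 of CD3D, CD3E, CD3G and TRAC, B cells at least 2 genes of a fixed B cell list that holds MS4A1 and CD79A, and plasma cells at least 3 of TNFRSF17, DERL3, MZB1 and SDC1. T cells carried the larger part of the calls in each blood library. They made up 60.5% (54.3 to 66.5) of mitotic cells in naïve blood, 77.1% (69.3 to 83.8) in sham blood and 93.6% (88.5 to 96.9) in SCI blood, against 67.7%, 79.7% and 78.6% of all cells. Of S phase cells they made up 66.9%, 83.1% and 96.1%. Hence in SCI blood nearly every called cell was a T cell, whereas in naïve blood T cells made up less of the mitotic cells than of all cells.

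Within T cells the share with a mitotic call was 158 of 4281 in naïve blood (3.69%, 3.15 to 4.30), 108 of 3703 in sham blood (2.92%, 2.40 to 3.51) and 146 of 4664 in SCI blood (3.13%, 2.65 to 3.67). The S phase call was met by 1.89%, 1.73% and 2.10%. These intervals overlapped for both calls, and the order of the libraries differed between them. In the cord 2 of 68 T cells were mitotic (2.94%, 0.358 to 10.2) and 0 of 68 were in S phase, which allows a share of up to 4.41% at 3 counts (exact upper limit 5.28%).

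Mitotic calls were less frequent in CD8 T cells than in CD4 or FOXP3+ T cells, but not than in all other T cells. T cells were split by the UMIs of FOXP3, CD4 and of CD8A or CD8B, FOXP3 marking regulatory T cells. In naïve, sham and SCI blood the mitotic call was met by 5.48%, 4.24% and 5.06% of CD4 cells, and by 2.38%, 2.00% and 1.19% of CD8 cells. FOXP3+ cells were at 7.67%, 5.65% and 7.92%, on 31 of 404, 27 of 478 and 19 of 240 cells. T cells with neither gene detected, the largest group in each blood library, were at 2.49%, 1.25% and 2.69%. The CD4 and FOXP3+ intervals overlapped in every library, and the CD4 interval lay above that of CD8 cells in naïve (4.14 to 7.09 against 1.46 to 3.65) and SCI blood (3.88 to 6.48 against 0.718 to 1.85), but met it in sham blood (3.12 to 5.61 against 1.15 to 3.22). The S phase call was less split, at 2.74%, 2.30% and 3.43% of CD4 and 1.66%, 1.37% and 1.13% of CD8 cells.

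Depth entered these splits, since FOXP3 and CD4 are detected more easily in deep cells and the called cells were deep. Mitotic T cells had median depths of 7485.5, 13574.5 and 12008 UMIs, against 3520, 5033 and 4555 in T cells with neither call. When the gates were also read from cells thinned to 2000 UMIs, an alternative chosen after seeing the data, the mitotic shares were 6.30%, 2.95% and 2.33% in FOXP3+, 4.71%, 3.51% and 3.1% in CD4 and 2.84%, 1.94% and 1.23% in CD8 cells. CD4 cells kept the higher share over CD8 cells in all 3 libraries, while FOXP3+ cells were below CD4 cells in sham and SCI blood. FOXP3 itself had 60.6, 49.8 and 17.4 CPM in mitotic T cells against 45.0, 54.7 and 20.9 CPM in T cells with neither call.

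**Figure D4:**
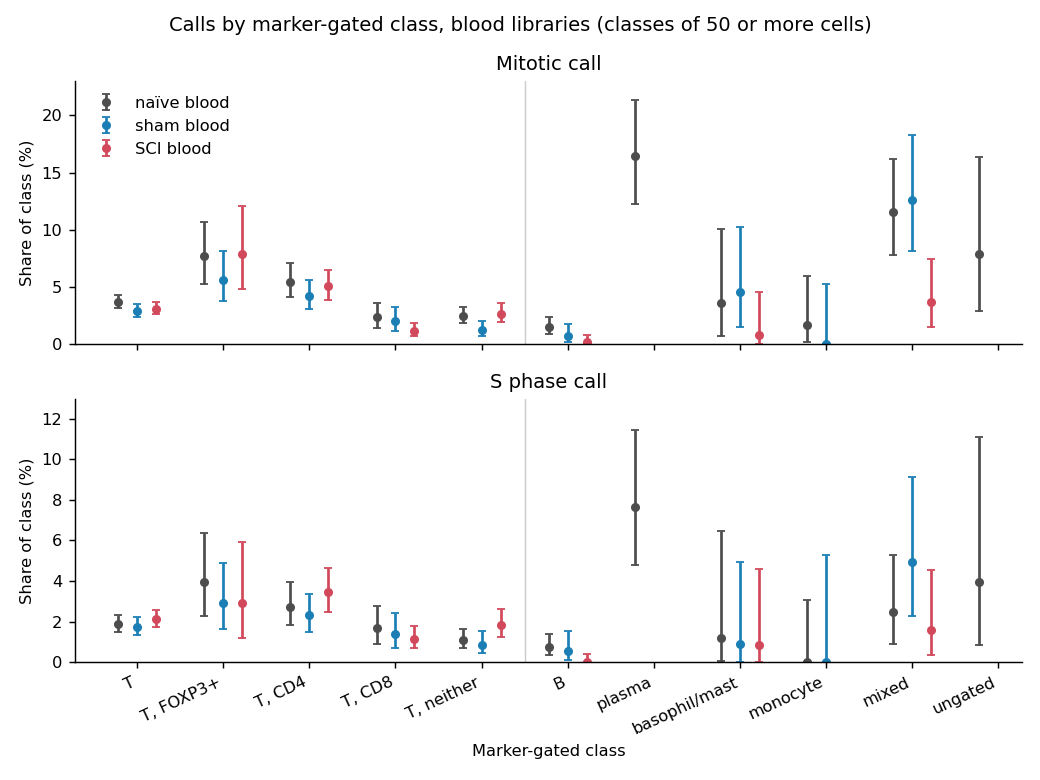
Share of cells with a mitotic and with an S phase call (percent, y axis) by gated class and T cell subset, for the larger classes of each blood library, with exact binomial intervals. Plasma cells of naïve blood stand at 16.4%, and CD4 and FOXP3+ T cells above CD8 T cells in the 3 blood libraries.

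The summed levels gave the same order for CD4 and CD8 cells. Mitotic members summed to 1446, 979.9 and 1254 CPM in CD4 cells of naïve, sham and SCI blood and to 418.9, 574.6 and 588.2 CPM in CD8 cells, log2 ratios of 1.79, 0.77 and 1.09. Of the 24 mitotic members, 24, 17 and 23 were past 1.5-fold higher in CD4 cells, against 9.27%, 9.28% and 9.79% of all genes tested. S phase members had log2 ratios of 0.62, 0.72 and 1.03, with 7, 10 and 17 of 18 past 1.5-fold. FOXP3+ cells exceeded CD8 cells by 1.61, 1.76 and 1.15 in summed mitotic log2 level, with 23, 24 and 21 of 24 members past 1.5-fold (10.5%, 11.6% and 12.5% of all genes). Against CD4 cells, FOXP3+ cells had log2 ratios of -0.18, 0.99 and 0.054, with 0, 24 and 1 of 24 members past 1.5-fold higher (8.09%, 9.19% and 9.31%), so that FOXP3+ cells were well above CD4 cells in sham blood and not in the other libraries. Few cells carried these sums, since the 5 cells with most mitotic UMIs held 24.0% to 27.8% of them in CD4, 39.1% to 54.0% in CD8 and 41.7% to 57.0% in FOXP3+ cells. Without those 5 cells, an alternative chosen after seeing the data, the levels were 1071, 747 and 980.1 CPM in CD4, 261, 269 and 289.9 CPM in CD8 and 737, 1194 and 607 CPM in FOXP3+ cells of naïve, sham and SCI blood, so that CD4 and FOXP3+ cells stayed above CD8 cells in each library.

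Plasma cells were the class with the highest share of dividing cells, and they were found in naïve blood. The gate held 274 naïve cells (4.33% of that library), 0 sham, 2 SCI blood and 0 cord cells. The mitotic call was met by 45 of the 274 (16.4%, 12.2 to 21.4) and the S phase call by 21 (7.66%, 4.81 to 11.5), against 3.69% and 1.89% of T cells in the same library. With a median of 13302 UMIs the plasma cells held 14.6% of the library's counted UMIs, 21.0% of its mitotic and 27.3% of its S phase UMIs. Both intervals lay above those of T and B cells of naïve blood. Deep cells pass this gate more easily. When gates were read at 2000 UMIs only 54 cells passed it, with a mitotic share of 11.1% (4.19 to 22.6) and an S phase share of 12.96% (5.37 to 24.9).

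Plasma cells differed from T cells most in S phase and licensing genes. Of 18 S phase members 13 were past 1.5-fold higher than in T cells of naïve blood and 12 of 24 mitotic members were, with none lower, against 12.3% of all genes higher and 55.4% lower. The median log2 ratio was 1.25 over S phase and 0.60 over mitotic members, beside -0.72 over all genes. CDC6 stood at 51.9 CPM against 5.89 (log2 ratio 3.13, interval 2.74 to 3.55) and RRM2 at 183 against 40.4 CPM (2.18, 2.01 to 2.36). BUB1 stood at 41.98 against 10.7 CPM (1.98), TYMS at 190 against 60.7 CPM (1.64) and CDC20 at 53.2 against 19.4 CPM (1.45). The plasma cells held 51.9% of the CDC6, 40.7% of the RRM2 and 39.4% of the BUB1 UMIs of naïve blood. Within called cells most members of both lists were lower in plasma cells than in T cells. MKI67 stood at 402 CPM in plasma cells against 944 in T cells, TOP2A at 152 against 650 CPM and PCNA at 256 against 441 CPM. The members not lower were BUB1 (113 against 85.6 CPM), RRM2 (423 against 373), CDC6 (101 against 45.5) and CCNE1 (35.5 against 27.8). A value over all genes is not given for called cells, which were themselves chosen on the members. Over all plasma and T cells the median gene lay at -0.72, so these lower values cannot be read as particular to the members.

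B cells had fewer calls, and fewest after injury. The mitotic call was met by 19 of 1244 in naïve blood (1.53%, 0.922 to 2.37), 4 of 561 in sham blood (0.713%, 0.195 to 1.81) and 2 of 893 in SCI blood (0.224%, 0.0271 to 0.807). The S phase call was met by 9, 3 and 0, the last allowing up to 0.336% at 3 counts (exact upper limit 0.412%). The naïve and SCI intervals did not overlap for the mitotic call, and the sham interval met both. With gates read at 2000 UMIs, an alternative chosen after seeing the data, the naïve share was 0.917% (0.459 to 1.64) and the SCI share 0.441% (0.120 to 1.12), and these intervals overlapped. In naïve blood the 25 B cells with either call carried more of the plasma cell gene MZB1 (1354 against 517.6 CPM) and of TNFRSF17 (209 against 69.1 CPM) and less of the B cell gene MS4A1 (1149 against 4021 CPM) than the other B cells. The other plasma gate genes did not follow. DERL3 stood at 12.8 against 15.1 CPM, on 3 UMIs in the called cells, and SDC1 had 0 UMIs in both groups.

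Summed over B cells, mitotic members stood at 379, 395 and 99.9 CPM and S phase members at 507, 386 and 264 CPM in naïve, sham and SCI blood. A single sham B cell of 75348 UMIs held 604 of the 936 mitotic UMIs. Without the top cell of each library, left out after seeing the data, the mitotic levels were 334, 144 and 51.9 CPM, and without the top 5 they were 243, 52.5 and 45.4 CPM. The naïve level thus stayed far above the SCI level, while the sham and SCI levels came close. Against naïve blood, all 23 mitotic members with enough counts were past 1.5-fold lower after SCI (summed log2 ratio -1.92, -2.11 to -1.75) and 13 of 18 S phase members were, where 8.25% of all genes were lower. The medians were -1.77 and -1.73, beside 0.022 over all genes. MKI67 stood at 45.7 CPM in naïve and 4.88 CPM in SCI B cells, and TYMS at 42.8 and 0.977 CPM. The helicase subunit MCM5 did not take part, at 79.7, 70.9 and 76.2 CPM in naïve, sham and SCI B cells. Against sham blood 22 mitotic members had enough counts and all were past 1.5-fold lower in SCI B cells (summed log2 ratio -1.98), where 5.41% of all genes were. Without the top cell of each library 6 of 7 mitotic members with enough counts were lower (-1.47), where 4.98% of all genes were. Without the top 5 cells 0 of 5 were lower and 1 was higher, where 4.76% of all genes were lower. The summed log2 ratio was then -0.21 (-0.57 to 0.16). The lower mitotic level against sham blood therefore rested on a few sham cells.

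In the remaining classes the calls were few. Cells with at least 3 basophil or mast cell genes were mitotic in 3 of 84, 5 of 110 and 1 of 119 cells of naïve, sham and SCI blood, and in naïve blood 2 of those 3 were marked as doublets. Monocytes, with at least 3 of CD14, S100A8, S100A9, FCN1, VCAN, MNDA and LYZ, were mitotic in 2 of 119, 0 of 68 and 0 of 12, and both called cells were marked as doublets. Their summed mitotic level was 70.2, 39.5 and 19.8 CPM against 833, 808 and 840 CPM in T cells. No NK cell was called among 2, 8 and 14, and no blood cell passed the eosinophil or neutrophil gate alone. Among 76 naïve cells that passed no gate 6 were mitotic, and plasma cell markers led in these cells with a summed 1796 CPM.

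Barcodes that passed more than 1 gate had a high mitotic share in naïve (28 of 243, 11.5%) and sham blood (23 of 183, 12.6%) but not in SCI blood (7 of 190, 3.68%). Most passed the T and B gates together, 196, 153 and 174 barcodes, of which the doublet caller had marked 45.9%, 10.5% and 28.2%. In naïve blood 8 of 13 barcodes with T, B and plasma markers were mitotic. Of the mitotic barcodes that passed more than 1 gate, 2 of 28, 0 of 23 and 0 of 7 were marked, and none of the 13 barcodes with T, B and plasma markers was.

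Across whole libraries the comparison of sham with naïve blood asks what surgery without cord injury does. Summed mitotic members stood at 888 CPM in sham and 824 CPM in naïve blood (log2 ratio 0.11, interval 0.077 to 0.14), and S phase members at 615 and 696 CPM (-0.18, -0.21 to -0.14). The lists moved apart by a small amount, and the signs depended on the cells and the scale. Without plasma cells both ratios were above 0 (0.22 and 0.054), and as the mean of per-cell CPM the mitotic ratio was -0.13. In UMIs per cell the ratios were 0.45 and 0.16, beside a median of 0.41 over all genes on that scale. Past 1.5-fold were 2 of 42 members, both lower in sham blood, against 12.9% of all 14536 genes tested in either direction and 6.12% lower: CDC20 (-0.61) and CDC6 (-1.24). The median log2 ratio was 0.061 over mitotic and -0.23 over S phase members, beside 0.068 over all genes tested. Within T cells the summed log2 ratios were -0.045 and 0.072 and no member was past 1.5-fold (8.12% of genes).

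In SCI against naïve blood, the library of injured hosts had the lower level over all cells. Summed mitotic members stood at 707 CPM in SCI blood (log2 ratio -0.22, -0.25 to -0.19) and S phase members at 625 CPM (-0.16, -0.19 to -0.12). Without plasma cells the mitotic ratio was -0.11 and the S phase ratio turned to 0.078. Of the 42 members 4 were past 1.5-fold and all were lower, where 17.3% of genes were past it in either direction and 8.61% lower: BUB1 (-0.76), CDC20 (-0.77), RRM2 (-0.72) and CDC6 (-1.08). The median was -0.23 over mitotic and -0.16 over S phase members, beside 0.066 over all genes. Plasma cells exceeded T cells of naïve blood in these 4 genes, as in every other member but TOP2A (log2 ratio -0.57) and CENPF (-0.020). With the plasma cells left out, an alternative chosen after seeing the data, no member was past 1.5-fold in either comparison with naïve blood. CDC6 then stood at 8.23 CPM in naïve blood (log2 ratio of SCI blood -0.26, -0.59 to 0.08) and RRM2 at 45.5 CPM (-0.19). The naïve mitotic share without them was 3.57% (3.12 to 4.07).

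Within T cells SCI and naïve blood were close, with summed log2 ratios of 0.011 (-0.025 to 0.048) for mitotic and 0.18 (0.14 to 0.23) for S phase members. Only UHRF1 was past 1.5-fold, at 14.2 against 8.76 CPM (0.69, 0.36 to 1.03), where 12.3% of genes were, 6.33% of them higher. Of the S phase members 16 of 18 had a log2 ratio above 0 in T cells, with a median of 0.26 beside -0.015 over all genes.

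SCI against sham blood compares hosts that all had surgery, with and without cord injury. Mitotic members were lower in SCI blood over all cells (log2 ratio -0.33, -0.36 to -0.30), with 23 of 24 below 0 and a median of -0.34 beside 0.012 over all genes. S phase members stood close to sham (0.023, -0.012 to 0.058). Only BUB1 was past 1.5-fold (-0.67, -0.93 to -0.40), where 12.7% of genes were past it in either direction and 6.98% lower. Within T cells the mitotic ratio was 0.056 (0.021 to 0.091) and the S phase ratio 0.11, and the low count gene CCNE2 was past 1.5-fold lower (-0.60, -1.0 to -0.20), where 11.1% of genes were past it and 5.04% lower. The T cells of SCI blood did not show the lower level, at 840 CPM against 808 in sham blood. Mixed barcodes summed to 3115 CPM in sham and 739 CPM in SCI blood, and B cells to 395 and 99.9 CPM. Without the 5 B cells with most mitotic UMIs in each library, B cells stood at 52.5 and 45.4 CPM.

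**Figure D5:**
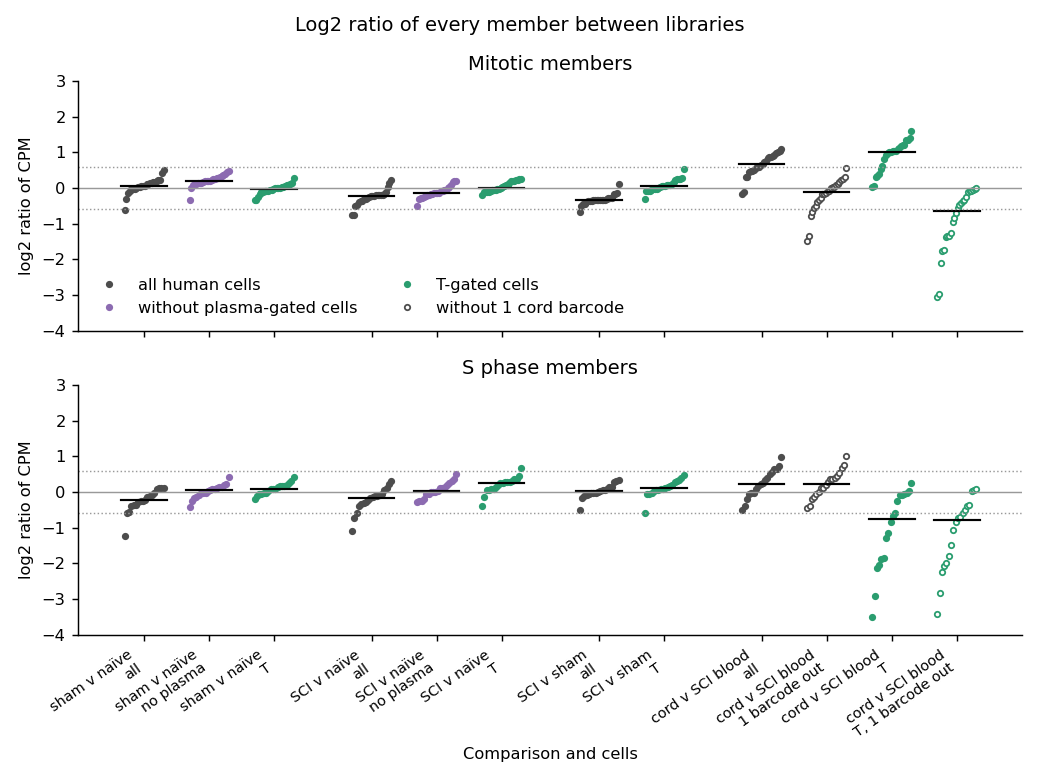
Log2 ratio of each member (points, y axis) in 4 comparisons between libraries, over all human cells, T cells, all cells without plasma cells, and without the 1 cord barcode with most mitotic UMIs (open points), with black bars for medians and dotted lines at 1.5-fold. Among the blood comparisons over all cells the points past the lines are CDC6, CDC20, RRM2 and BUB1, and the cord comparisons spread widest, where the lowest T cell points belong to members with few or no UMIs in the cord, such as MCM2, and depend on the 0.5 added to each count.

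The cord held few human cells, and 1 of them dominated its mitotic transcripts. Over all cells, mitotic members stood at 1123 CPM in the cord against 707 in SCI blood (log2 ratio 0.67, 0.58 to 0.75) and S phase members at 695 against 625 CPM (0.15, 0.044 to 0.26). Of 24 mitotic members 15 were past 1.5-fold higher, among them DLGAP5 (1.10), CENPE (1.04) and AURKA (1.02), and 4 S phase members were, UHRF1 (0.99), MCM6 (0.73), CCNE2 (0.65) and CLSPN (0.64), where 22.2% of all genes were higher. However, 543 of the 1191 mitotic UMIs (45.6%) came from 1 T cell of 31337 UMIs with both CD4 and CD8 transcripts. Without it the mitotic log2 ratio was -0.18 and 0 mitotic members were past 1.5-fold higher. Lower by that much were 4, a count with no share of all genes to set beside it. The S phase level likewise rested on 1 B cell of 39540 UMIs, which held 182 of the 737 S phase UMIs and 19 of the 25 UMIs of UHRF1. Without that B cell, left out after seeing the data, the S phase log2 ratio was -0.22, UHRF1 stood at 5.80 CPM against 12.1 (-0.94), and the log2 ratios of MCM6, CCNE2 and CLSPN were 0.50, 0.060 and 0.45.

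In T cells of the cord the same cell gave 70.2% of the mitotic UMIs. With it, 18 of 24 mitotic members were past 1.5-fold higher than in T cells of SCI blood and 10 of 18 S phase members were lower, where 22.5% of genes were past it higher and 14.8% lower. The median was 1.02 over mitotic and -0.76 over S phase members, beside 0.053 over all genes. PCNA stood at 47.2 CPM against 118 (log2 ratio -1.29, -2.00 to -0.72) and MCM3 at 51.5 against 94.5 CPM (-0.85, -1.52 to -0.30). MCM2 and CDC6 had no UMI in the 68 cord T cells. Without that cell the summed log2 ratios were -0.68 for mitotic and -0.91 for S phase members, so that the higher mitotic level did not remain. That cell held S phase members at 1527 CPM, against 429 CPM over all cord T cells. Leaving it out could therefore only lower the S phase level, and says nothing on how firm that lower level is.

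The 6 called cord cells spanned several classes. Besides that T cell, with 13 mitotic members at 1000 UMIs, they were a CD4 T cell with 188 mitotic and 91 S phase UMIs, a barcode with T and B markers with 164 and 44, a monocyte with 135 and 169, a cell with no gate with 60 and 47, and a B cell with 27 and 182. The monocyte and the cell with no gate met both rules, and the B cell the S phase rule alone. None of them was marked as a doublet, but all had at least 13579 UMIs.

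Finally, mitotic T cells were compared with T cells that had neither call, within each blood library. The call chose these cells on the mitotic members, so that their mitotic levels describe the called cells and are no comparison of the libraries. Summed mitotic levels were 8237, 7920 and 7880 CPM in naïve, sham and SCI blood. Between libraries 0 of 24 mitotic members were past 1.5-fold in any of the 3 comparisons. The same call rule chose the cells of each library and favours like mitotic levels, so this count cannot show that the libraries are alike. Of all genes, 5.88% were past 1.5-fold higher and 6.15% lower in sham against naïve blood, 6.14% and 7.99% in SCI against naïve blood, and 5.81% and 6.51% in SCI against sham blood. MKI67 stood at 1096, 1004 and 965 CPM and TOP2A at 774, 824 and 854 CPM. Their S phase members summed to 2987, 3211 and 3689 CPM, and those past 1.5-fold were UHRF1 (56.8 and 97.6 CPM) and CCNE1 (24.0 and 39.7 CPM) in SCI against naïve blood and CDT1 (80.6 and 127.6 CPM) in SCI against sham blood.

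Other cell cycle genes went with the calls. Of 41 further replication and mitosis genes that are no members, 40 had enough counts and all 40 were past 2-fold higher in mitotic T cells of all 3 blood libraries, against 5.0% of all 11482 genes tested. HMGB2, a chromatin protein, had log2 ratios of 3.70, 3.65 and 3.67, the tubulin TUBA1B 3.30, 3.39 and 3.27, the histone variant H2AFZ 2.38, 2.44 and 2.48, and the histone HIST1H4C 3.85, 4.11 and 4.17. In T cells with only an S phase call 31 of 33 tested were higher (4.72% of genes). Called cells were chosen on the members and were deeper, so these ratios describe the called cells and bear on no condition.

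G1 regulators split. Of 6 tested, CDK2 (2.80, 2.35 and 2.13) and CDK4 (1.24, 1.24 and 1.33), the kinases of G1 and S phase entry, were past 2-fold higher in mitotic T cells. The D cyclins CCND3 (0.17, 0.28 and 0.47) and CCND2 (-0.64, -0.43 and -0.91) were not past it, nor was CDK6 (-0.28, -0.27 and -0.43). MYC, a growth factor response gene, stood at 43.3, 47.4 and 33.5 CPM against 85.7, 101 and 130 CPM, with log2 ratios of -0.97, -1.08 and -1.94.

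Of 15 inhibitors and quiescence genes, CDKN2C (2.80, 2.13 and 2.12) and CDKN1A (2.66, 1.07 and 3.11) were past 2-fold higher, CDKN1A on only 22, 7 and 19 UMIs in the called cells. BTG1, an antiproliferative gene, was past it lower (-1.08, -1.49 and -1.51), where 3.20% of all genes were. CDKN2B also passed, but on 1 UMI in each library's called cells, and its interval reached above 0 in naïve and sham blood. KLF2, which keeps T cells quiescent, was lower by less (-0.43, -0.51 and -0.33), as was RBL2 (-0.84, -0.81 and -1.03). CDKN2D was near 0 in mitotic cells (-0.02, 0.23 and 0.15) but past 2-fold lower in S phase only cells (-1.65, -2.07 and -1.06), where 1.62% of all genes were lower.

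Of 11 activation genes HLA-DRA (1.40, 1.89 and 2.12), CD38 (1.49, 1.65 and 1.91) and NME1 (1.18, 1.32 and 1.15) were past 2-fold higher in mitotic T cells. HLA-DRB1 was at 0.67, 1.12 and 1.54, whereas the costimulatory receptors TNFRSF4 (-0.66, -0.88 and -0.60) and TNFRSF18 (-0.29, -0.28 and -0.33) were below 0. Of 16 T cell state genes IL7R, the receptor of the survival cytokine IL-7 (-2.71, -2.90 and -2.64), GZMK (-1.32, -1.97 and -2.74) and CD8B (-1.32, -1.23 and -2.57) were past 2-fold lower. GZMA (-0.63, -1.18 and -1.18) and TCF7 (-0.86, -0.997 and -0.99) were below 0 in all 3 libraries without passing it in all. Of the 16 genes 9 were below 0 in all 3 libraries and 4 above, where 4338 and 3293 of all 11482 genes tested were. The 4 state genes above 0 were GZMH (0.64 to 1.45), GZMB (0.18 to 0.93), CTLA4 (0.70 to 1.13) and PDCD1 (0.27 to 0.62). In S phase only T cells GZMB and GZMH were past 2-fold higher and GZMK and IL7R lower, where 4.72% and 1.62% of all genes were. None of 10 stem and progenitor cell genes had enough counts in T cells to be tested.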

How the data were processed

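Droplet-based 3′ libraries of sorted human CD45+ cells were available as 1 table per condition. The authors mapped reads to a combined human (hg38) and mouse (mm10) reference and counted UMIs with CellRanger 3.1.0, and the deposited values are raw counts of UMIs per gene and barcode, checked to be whole numbers. No other unit was used.

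Barcodes with over 50% human UMIs were kept. Within each library, barcodes lying more than 3 median absolute deviations (MADs) under the median log UMI or gene number, or over the median mitochondrial or ribosomal percent, were dropped (319 of naïve blood, 237 of sham blood, 252 of SCI blood and 20 of the cord). Scrublet, run through scanpy 1.11.5, marked the highest scores at 0.8% per 1000 barcodes (436, 276, 377 and 0), and of these the ones that held over 3000 genes were dropped (71, 87, 100 and 0), so that doublets with fewer genes stayed in. Kept cells had at least 1165 UMIs, and kept libraries 29425269, 27762374, 31110171 and 1430777 human UMIs.

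Calls used cells thinned to 1000 UMIs. Gates read all UMIs, not every gene they read is reported here, and a barcode that passed more than 1 gate, other than plasma and B, was called mixed. CPM left ribosomal and mitochondrial genes out of the total. Log2 ratios added 0.5 to each count, and a gene was tested against 1.5-fold where its counts in both sides of a comparison summed to at least 20, and against 2-fold in all 3 blood libraries for T cells with and without a call. Intervals are exact (Clopper-Pearson for shares, Poisson for CPM, conditional binomial for ratios) at 95%. They cover counting error only, treat the UMIs of 1 cell as independent, and do not hold the spread between hosts. The ratio and call steps were tested on simulated data. The steps ran under Python 3.11.15 with pandas 2.3.3, scipy 1.17.1, matplotlib 3.10.9, anndata 0.12.19 and numpy 2.4.6.

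Members and gene lists were chosen with earlier results of these data known. The named genes were the 8 mitotic and 8 S phase members with most UMIs, members past 1.5-fold, and of each other list the 4 with most UMIs in blood T cells and those past 2-fold in all 3 blood libraries. Other members were added to account for all 42, and called T cells of the cord, 2 in number, were not compared. Human gene sequences and coordinates were not used here.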

Additional observations from a re-analysis of the deposited data

How the results depend on the processing

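The depth to which cells were thinned and the rule for a call set the size of the shares. At 2000 UMIs, with no thinning and with 1 more gene needed, the mitotic shares were 6.01%, 9.96% and 2.74% in naïve blood, 4.33%, 9.44% and 2.09% in sham blood and 3.92%, 7.76% and 1.84% in SCI blood, and the S phase shares were 4.26%, 8.79% and 0.981%, 3.06%, 8.93% and 1.01%, and 3.18%, 7.55% and 0.894%. Without thinning the cord was at 12.7% and 16.1%. The mitotic order naïve, sham, SCI blood held in each of these settings. With plasma cells left out the naïve mitotic share was 3.57%. A stricter human cut of 90%, all marked doublets removed, no MAD filter and another random draw moved no share by more than its interval.

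With gates and calls both read at 2000 UMIs, T cells of naïve, sham and SCI blood were mitotic in 5.52%, 4.88% and 4.74% and in S phase in 3.55%, 3.38% and 3.71%, plasma cells were in S phase in 18.5%, CD8 cells were mitotic in 4.04% of naïve and 2.13% of SCI blood, and FOXP3+ cells in 4.65% of SCI blood. With gates at 2000 and calls at 1000 UMIs, naïve B cells were mitotic in 0.917%, plasma cells were mitotic in 11.1% and in S phase in 12.96%, FOXP3+ cells were mitotic in 2.95% of sham and 2.33% of SCI blood, and CD4 cells in 3.1% of SCI blood.

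The summed log2 ratios between blood libraries were small enough to depend on the scale. As UMIs per cell instead of CPM, mitotic ratios were 0.45 (sham against naïve), -0.17 (SCI against naïve), -0.62 (SCI against sham) and 1.98 (cord against SCI blood), and S phase ratios 0.16, -0.10, -0.26 and 1.47. The medians over all genes on that scale were 0.41, 0.12, -0.27 and 1.30 in the same order. As the mean of per-cell CPM, mitotic ratios were -0.13, -0.38, -0.25 and 0.87, and the S phase ratios of SCI blood -0.11 to naïve and 0.061 to sham blood. With ribosomal and mitochondrial genes in the total, mitotic ratios of SCI blood were -0.34 to naïve and -0.43 to sham blood, that of the cord was 0.77, and S phase ratios of SCI blood were -0.27 and -0.076. With immunoglobulin genes out of the total, ratios to naïve blood were 0.011 and -0.27 for sham and -0.32 and -0.25 for SCI blood, mitotic first. Without plasma cells they were 0.22 and 0.054 for sham and -0.11 and 0.078 for SCI blood. In T cells alone, mitotic ratios were -0.045, 0.011, 0.056 and 0.99 and S phase ratios 0.072, 0.18, 0.11 and -0.70. Without the cord cell with most mitotic UMIs the cord mitotic ratio turned to -0.18.

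As UMIs per cell, which moves all genes with cell depth, members past 1.5-fold were 2 higher and 1 lower in sham against naïve (23.7% and 3.18% of all genes), 18 lower in SCI against sham (14.1%) and 42 higher in the cord (85.9%). In T cells alone 0 were lower against naïve blood, 1 was higher in SCI against naïve and 10 were lower in the cord. Without plasma cells 0 were lower against naïve blood. Without that 1 cord cell 3 were higher and 4 lower. Without the cord B cell with most S phase UMIs 5 were lower, and the S phase ratio of the cord was -0.22. The share of all genes was not counted with these cord cells left out. Of the inhibitors, 1 was higher and 1 lower without thinning, and 1 was lower with 1 more gene needed. Plasma-cell, mixed-barcode, cord-cell and gate-depth alternatives, the T cell member counts, the other draw and the inhibitor settings were chosen after seeing the data.

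No paired analysis was possible because each condition had 1 library, and none was left out. The planned promoter motif comparison was not run. Counts below 20, common for CCNE1 and CCNE2 in small classes, and the 118 cord cells limit the precision.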

Other observations

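The same libraries hold mouse cells, read here through the 24 and 18 mouse genes with the members' names and thinned to 1000 UMIs in the same way. The mitotic rule was met by 11 of 1133 mouse barcodes of naïve blood (0.971%, 0.486 to 1.73), 3 of 1890 of sham blood (0.159%), 2 of 1111 of SCI blood (0.180%) and 4 of 90 of the injured cord (4.44%, 1.22 to 10.99). The S phase rule was met by none of the blood barcodes and by 2 of 90 in the cord (2.22%, 0.270 to 7.80). These cells passed or escaped a sort for human CD45 and are no sample of the host's leukocytes.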
